A study of Mus musculus with 6 samples.

Results

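Bile acid synthesis was followed through 10 genes chosen by name from the pathway: the hydroxylases Cyp7a1 and Cyp8b1 of the classic arm, Cyp27a1 and Cyp7b1 of the alternative arm, the shared enzymes Hsd3b7, Akr1d1, Amacr and Baat, the bile acid receptor FXR (Nr1h4) and the repressor SHP (Nr0b2). They have 16 of the 38208 probe sets on the arrays and make up 10 of the 18029 genes measured. The arrays hold liver RNA of C57BL/6 mice with floxed RECS1 alleles (RECS1-flox, the controls, n = 3) and of mice in which hepatocytes lack RECS1 (RECS1-HKO, called HKO, n = 3). Tmbim1 is the current name of RECS1, which encodes a membrane protein. All mice, controls included, were given a high-fat diet (HFD) for 8 weeks and were 16 weeks old, and no mice on another diet are part of the series. The labels give neither the sex of the animals nor the driver of the deletion. Values are log2 intensities, a change of 1 being a 2-fold change, and each array was hybridised with RNA of a separate liver sample.

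Hepatocytes make bile acids from cholesterol. In the classic arm Cyp7a1 sets the rate by hydroxylating cholesterol itself, and Cyp8b1 adds the hydroxyl group that makes cholic acid, while in the alternative arm Cyp27a1 oxidises the sterol side chain and Cyp7b1 hydroxylates the oxysterols that result. Bile acids that return to the liver activate FXR, which induces SHP, and SHP in turn represses Cyp7a1 and Cyp8b1.

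Of the 10 genes, Akr1d1 rose and Cyp7b1 fell in HKO liver (limma, Benjamini-Hochberg adjusted p under 0.05 over all 18029 genes), and 8 did not pass. Over all genes 1.01% passed, 0.56% upward and 0.449% downward. The HKO and control values of 6 of the 10 genes did not overlap, with Akr1d1 above the controls and Cyp7a1, Cyp27a1, Cyp7b1, Amacr and Nr0b2 below them, whereas 18.7% of all genes had groups that do not overlap. The median log2 fold change of the 10 genes was -0.11, against -0.00 over all genes, and the median size of the change was 0.23 against 0.09. All 10 genes are bright, from percentile 84.1 (Akr1d1) to 99.2 (Hsd3b7) in mean level. The figures over all genes include dim genes, so they are not matched to the 10 in level. These members were chosen with earlier results of the same arrays known, so the counts describe them and are no independent evidence.

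The proximal promoters of 4 genes are shown because they belong to the enzyme that rose (Akr1d1), the repressor with the next largest difference in level after Cyp7b1 and Akr1d1 (Nr0b2), the classic-arm enzyme whose groups overlapped (Cyp8b1), and a muricholic acid enzyme described below whose values ran closest to those of Cyp7a1 (Cyp2c70). Each run is the 250 bases before the start site of the gene's promoter entry, 5′ to 3′ on the strand of the gene, from RefSeq (GRCm38.p6). Of the 10 members 6 matched an entry; Cyp7a1, Cyp7b1, Amacr and Baat are named only. Akr1d1 lies at chr6:37529923-37530172 (+ strand), Nr0b2 at chr4:133553126-133553375 (+), Cyp8b1 at chr9:121916306-121916555 (-) and Cyp2c70 at chr19:40187287-40187536 (-). The annotated span of the Akr1d1 gene begins at 37529978, inside its window, so part of that run lies within the gene. The windows of Nr0b2, Cyp8b1 and Cyp2c70 lie directly before the annotated gene. Capitals mark matches on either strand to the nuclear receptor motif AGGTCA, the NR5A2 site CAAGGTCA (which holds the former), the HNF4A core CAAAGTCCA, the STAT site TTCNNNGAA and the TATA box TATAAA.
Akr1d1: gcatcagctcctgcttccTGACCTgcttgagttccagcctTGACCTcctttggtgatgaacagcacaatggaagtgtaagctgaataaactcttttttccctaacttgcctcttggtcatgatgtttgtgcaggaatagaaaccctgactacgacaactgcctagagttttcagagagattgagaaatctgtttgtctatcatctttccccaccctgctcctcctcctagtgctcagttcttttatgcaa
Nr0b2: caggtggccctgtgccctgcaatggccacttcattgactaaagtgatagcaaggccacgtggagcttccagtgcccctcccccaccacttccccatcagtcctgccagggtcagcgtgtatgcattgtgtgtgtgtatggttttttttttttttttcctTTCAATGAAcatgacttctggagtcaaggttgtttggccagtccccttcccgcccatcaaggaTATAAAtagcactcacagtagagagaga
Cyp8b1: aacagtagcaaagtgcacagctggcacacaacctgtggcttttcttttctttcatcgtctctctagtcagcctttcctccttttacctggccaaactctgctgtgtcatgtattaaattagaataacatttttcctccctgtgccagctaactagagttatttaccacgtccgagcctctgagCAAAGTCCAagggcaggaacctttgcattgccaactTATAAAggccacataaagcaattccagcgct
Cyp2c70: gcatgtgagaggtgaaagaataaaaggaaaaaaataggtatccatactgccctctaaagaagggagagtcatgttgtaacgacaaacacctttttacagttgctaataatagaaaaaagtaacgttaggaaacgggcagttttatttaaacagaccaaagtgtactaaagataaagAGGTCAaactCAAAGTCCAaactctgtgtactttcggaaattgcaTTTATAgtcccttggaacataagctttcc

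The HNF4A core began at position -67 in the Cyp8b1 window and at -64 in the Cyp2c70 window, counted from the start site, and is held by 0.384% of the 32851 promoter windows of this length. Akr1d1 held a pair of AGGTCA motifs on the reverse strand, at -232 and -210 from the start site of its entry, and 14% of windows hold at least 1. Nr0b2 held a STAT-type match at -91 (7.02% of windows) and a TATA box at -28 (12.4%). None of these 4 windows held the NR5A2 letters, which 1.33% of all windows do. A match describes the letters only and was not set against binding data.

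**Figure D1:**
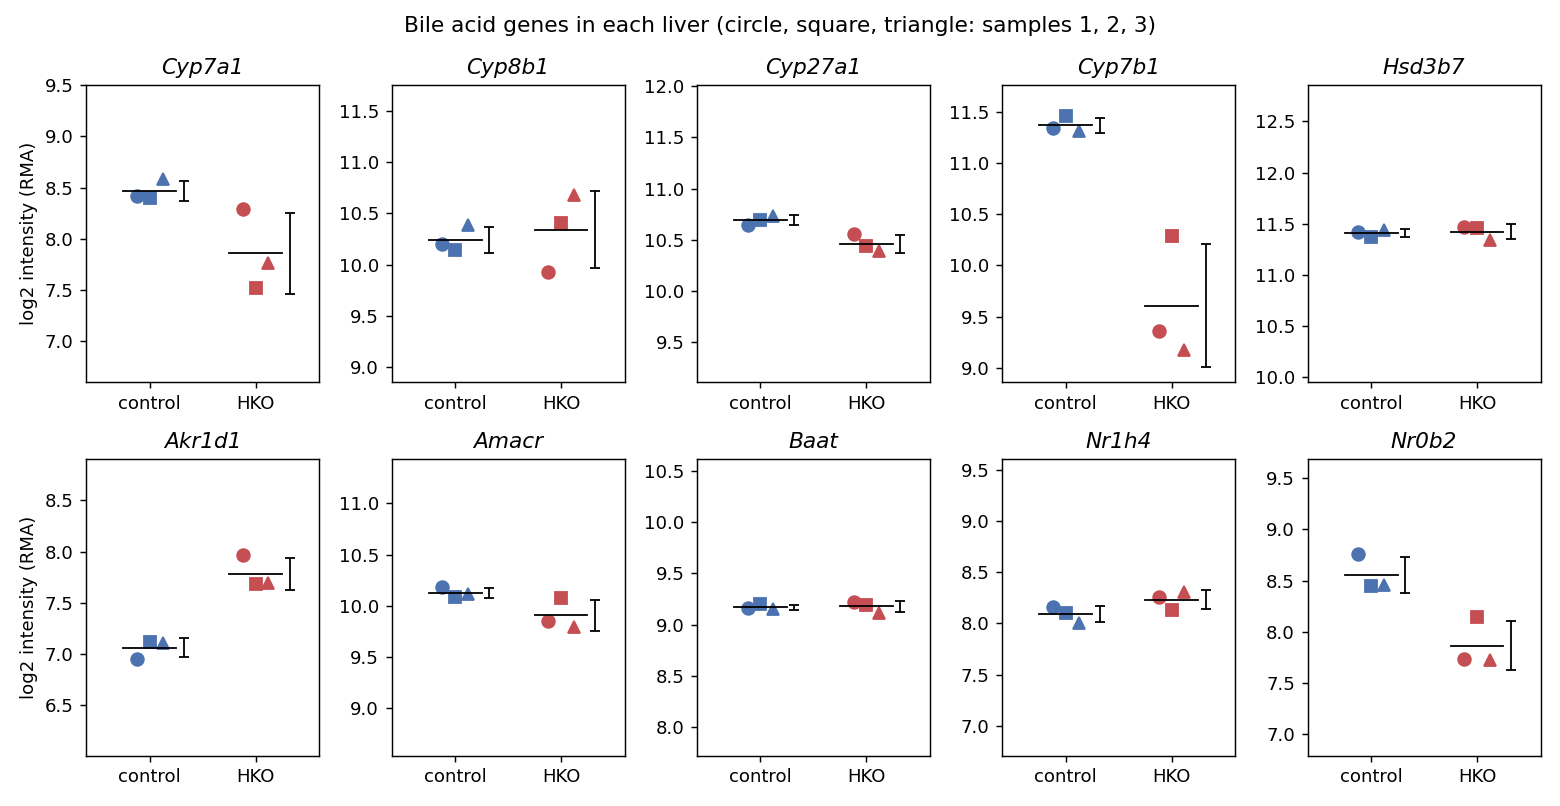
Log2 intensity (y axis) of the 10 genes in each control and HKO liver, with the mean (line) and SD (bar) of each group of 3. Every panel spans the same number of log2 units, and the marker shape gives the sample number, which is not stated to pair animals. The 3 HKO values of Cyp7b1 lie between 9.17 and 10.29, below the control values of 11.31 to 11.45, and those of Akr1d1 lie above the controls.

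The largest difference among the 10 genes was in the alternative arm. Cyp7b1, the oxysterol 7-alpha-hydroxylase, which male mouse liver is known to express more than female liver, measured 11.34, 11.45 and 11.31 in the control livers and 9.36, 10.29 and 9.17 in the HKO livers. The groups did not overlap, and HKO 2 lay nearest to the controls. Cyp7b1 fell by 1.76 ± 0.25 log2 units (SE; 95% interval -2.34 to -1.18), to 0.295 times the control level (limma, adjusted p = 0.022, rank 89 of 18029 genes by p). The SD within the HKO group, 0.60, was larger than the 0.08 of the controls. Cyp7b1 passed without HKO 2 (adjusted p = 0.000151, fold change -2.10) but not without any other single array, where the adjusted p lay between 0.0555 and 0.114.

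Cyp27a1, the mitochondrial sterol 27-hydroxylase that opens the alternative arm, measured 10.65, 10.70 and 10.74 in control and 10.56, 10.44 and 10.39 in HKO livers. The groups did not overlap, yet the log2 fold change of -0.23 ± 0.08 (95% interval -0.41 to -0.05) did not pass over all genes (limma, adjusted p = 0.257). Both alternative-arm enzymes were thus lower in every HKO liver, by very different amounts. Relative to its own control mean, Cyp7b1 minus Cyp27a1 came to -1.88, -0.82 and -1.89 log2 units in HKO 1, 2 and 3, and to 0.02, 0.08 and -0.10 in the controls. Cyp27a1 (74713148-74737897) and the targeted gene Tmbim1 (74288247-74304336) both lie on chromosome 1, and any bearing of that position was not tested.

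In the classic arm Cyp7a1, the rate-limiting 7-alpha-hydroxylase, measured 8.42, 8.40 and 8.58 in control and 8.29, 7.52 and 7.76 in HKO livers. HKO 1 sat just below the lowest control, and the other two HKO livers lay well under it. The log2 fold change was -0.61 ± 0.18 (95% interval -1.02 to -0.20; 0.655 times control) and did not pass (limma, adjusted p = 0.20), though it did without HKO 1 (-0.83, adjusted p = 0.0429).

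Cyp8b1, the sterol 12-alpha-hydroxylase, measured 10.20, 10.14 and 10.38 in control and 9.93, 10.41 and 10.68 in HKO livers. HKO 1 was the lowest of the 6 livers and HKO 3 the highest, so the groups overlapped. The log2 fold change was 0.10 ± 0.17 with a 95% interval of -0.30 to 0.50 (limma, adjusted p = 0.855), and it turned to -0.07 without HKO 3.

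Setting the arms side by side, the mean change of Cyp7a1 and Cyp8b1 from control was -0.24, -0.39 and -0.14 in HKO 1, 2 and 3, and that of Cyp27a1 and Cyp7b1 was -1.07, -0.67 and -1.25. The alternative-arm mean was the lower of the pair in each HKO liver, by 0.83, 0.28 and 1.11 log2 units, while the controls spanned -0.13 to 0.14. Cyp7b1 made up most of that gap, since Cyp27a1 moved less than Cyp7a1 in mean. No test is given for a mean over chosen genes.

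The HKO livers did not keep one order across the arms. HKO 2 had the highest Cyp7b1 of the HKO livers and the lowest Cyp7a1, and its Cyp7b1 minus Cyp7a1, relative to the control means, was -0.13 log2 units, against -1.83 in HKO 1 and -1.49 in HKO 3. Cyp7a1 and Cyp8b1 moved together in the controls, their changes differing by at most 0.03, but in HKO 2 and HKO 3 Cyp8b1 lay above Cyp7a1 by 1.11 and 1.14. In HKO 1 the difference was -0.13.

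**Figure D2:**
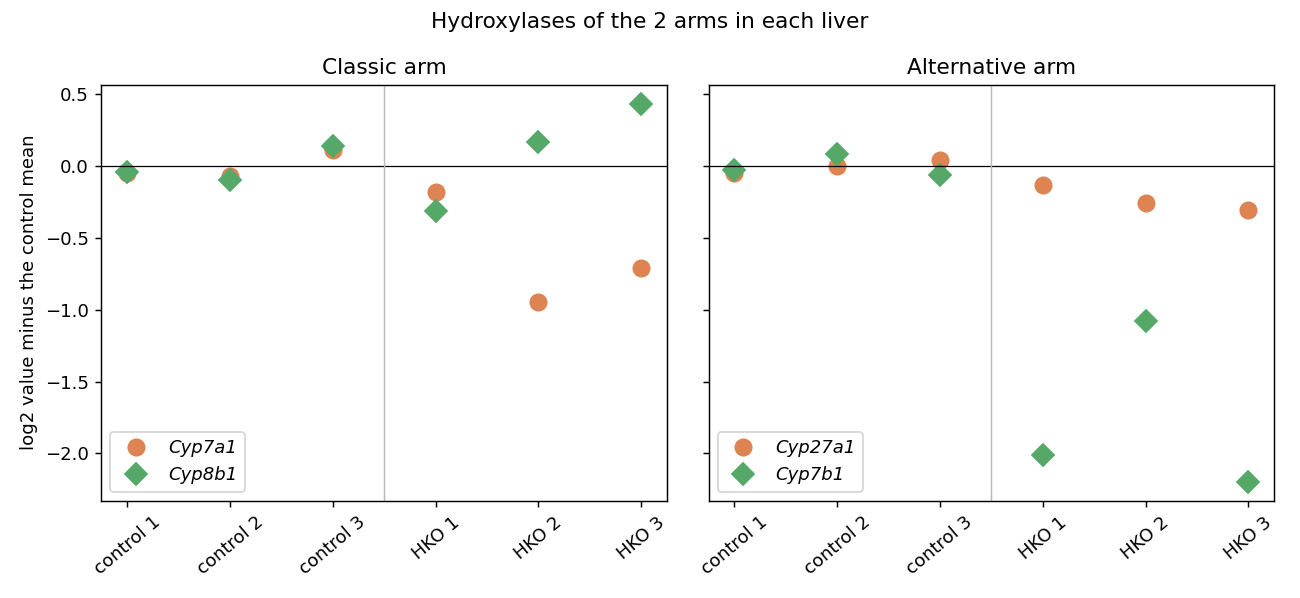
Log2 value of each hydroxylase minus its control mean (y axis) in each of the 6 livers (x axis), classic arm on the left and alternative arm on the right. Cyp7b1 stands at -2.01, -1.08 and -2.20 in the HKO livers, while Cyp8b1 runs from -0.31 to 0.43.

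Among the shared steps Akr1d1, the 5-beta-reductase that sets the bent ring shape of bile acids, measured 6.95, 7.12 and 7.10 in control and 7.96, 7.68 and 7.70 in HKO livers. Every HKO value lay above every control value, and HKO 1 was the highest. Akr1d1 rose by 0.72 ± 0.10 log2 units (SE; 95% interval 0.49 to 0.95), to 1.65 times control (limma, adjusted p = 0.0178, rank 78 by p). It did not pass with the replicate number as a block (adjusted p = 0.0642), nor in 4 of the 6 fits that left out 1 array each: control 1, 2 or 3, or HKO 1 (adjusted p 0.0505 to 0.0733).

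Hsd3b7, the dehydrogenase that follows 7-alpha-hydroxylation in both arms, measured 11.42, 11.37 and 11.44 in control and 11.47, 11.46 and 11.34 in HKO livers. Its log2 fold change was 0.01 ± 0.07, with a 95% interval of -0.16 to 0.18 (limma, adjusted p = 0.965). Baat, which joins bile acids to taurine or glycine, measured 9.16, 9.20 and 9.15 in control and 9.22, 9.20 and 9.12 in HKO livers, a change of 0.01 ± 0.07 (-0.15 to 0.17; adjusted p = 0.975). The groups of both genes overlapped, and their intervals exclude changes as large as that of Akr1d1.

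Amacr, the racemase that prepares the side chain for peroxisomal shortening, measured 10.18, 10.08 and 10.12 in control and 9.85, 10.08 and 9.79 in HKO livers. HKO 2 lay at the edge of the control range, just under its lowest value, and the other two further below. The log2 fold change was -0.22 ± 0.09 (95% interval -0.43 to -0.01) and did not pass (limma, adjusted p = 0.363).

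The receptor gene and its target had values of opposite sign, and neither passed. Nr1h4, which encodes FXR, measured 8.16, 8.10 and 8.01 in control and 8.25, 8.13 and 8.31 in HKO livers, a log2 fold change of 0.14 ± 0.08 (95% interval -0.05 to 0.33) with overlapping groups (limma, adjusted p = 0.52). Nr0b2, which encodes SHP, measured 8.76, 8.45 and 8.45 in control and 7.73, 8.14 and 7.72 in HKO livers. HKO 2 was again nearest to the controls, and no HKO value reached the control range.

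The log2 fold change of Nr0b2 was -0.69 ± 0.14 (95% interval -1.002 to -0.37; 0.621 times control). It did not pass (limma, adjusted p = 0.0703, rank 252 by p) but did without HKO 2 (-0.83, adjusted p = 0.0275) and with the trend and robust options of eBayes (adjusted p = 0.041). Cyp7a1 and Cyp8b1, which SHP represses, had values of -0.61 and 0.10 beside it. Neither difference passed.

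**Figure D3:**
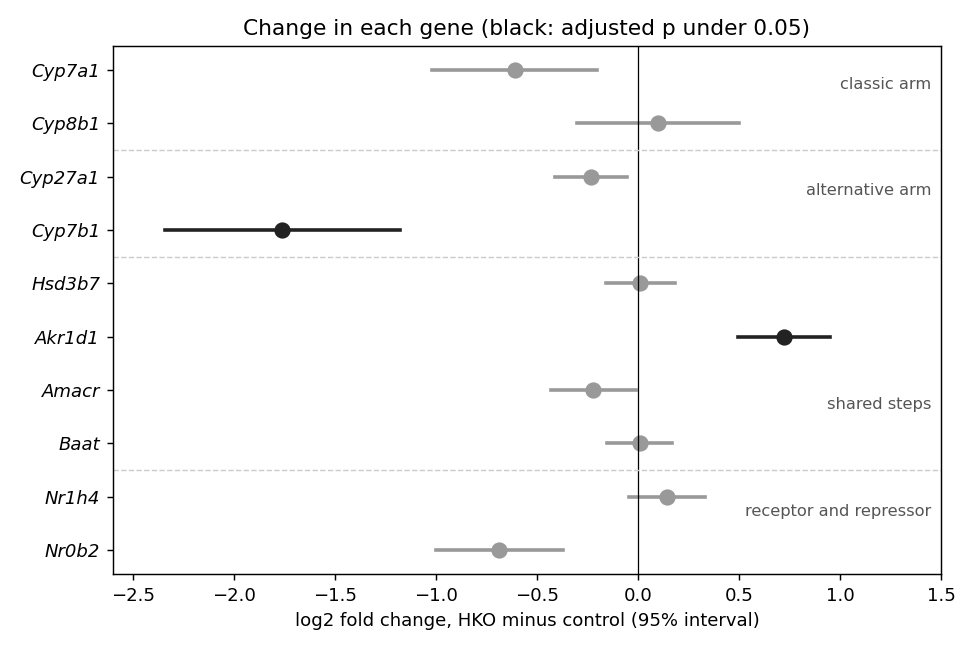
Log2 fold change, HKO minus control (x axis, point), with its 95% interval (line) for the 10 genes, ordered by role; black marks an adjusted p under 0.05. Cyp7b1 at -1.76 and Akr1d1 at 0.72 passed, and the intervals of Cyp8b1, Hsd3b7, Baat and Nr1h4 cross 0.

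Of the 10 genes, 5 have more than 1 probe set. An Affymetrix probe set is a group of short probes for a transcript, and a name ending in s_at or x_at marks probes that may also match other transcripts. Both bright Cyp7b1 probe sets fell, 1421074_at with a log2 fold change of -1.76 and 1421075_s_at with -1.89 (limma over probe sets, adjusted p = 0.023 and 0.0212). The other Cyp7b1 probe set, 1446995_at, measured between 1.20 and 1.44 on all arrays, in the lowest 4.69% of probe sets by level, and stood at -0.02.

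Both Akr1d1 probe sets rose, 1425771_at by 0.72 and 1455100_at by 0.92 (limma over probe sets, adjusted p = 0.0218 and 0.0394). In the second one the control livers measured 6.18, 6.62 and 6.70 and the HKO livers 7.45, 7.59 and 7.21. Neither group overlapped the other in either probe set.

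The Cyp7a1 probe sets agreed in sign but less in size. The brighter one, 1438743_at, stood at -0.61, and 1422100_at at -0.34 ± 0.21, with 5.91, 5.43 and 5.92 in control and 5.87, 5.05 and 5.34 in HKO livers. In the dimmer set the groups overlapped, and HKO 1 was again the highest HKO liver. The Baat probe sets stood at 0.01 and 0.03, and the dim Cyp27a1 set 1457665_x_at, at 0.78 to 1.29 on the arrays, stood at -0.11.

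**Figure D4:**
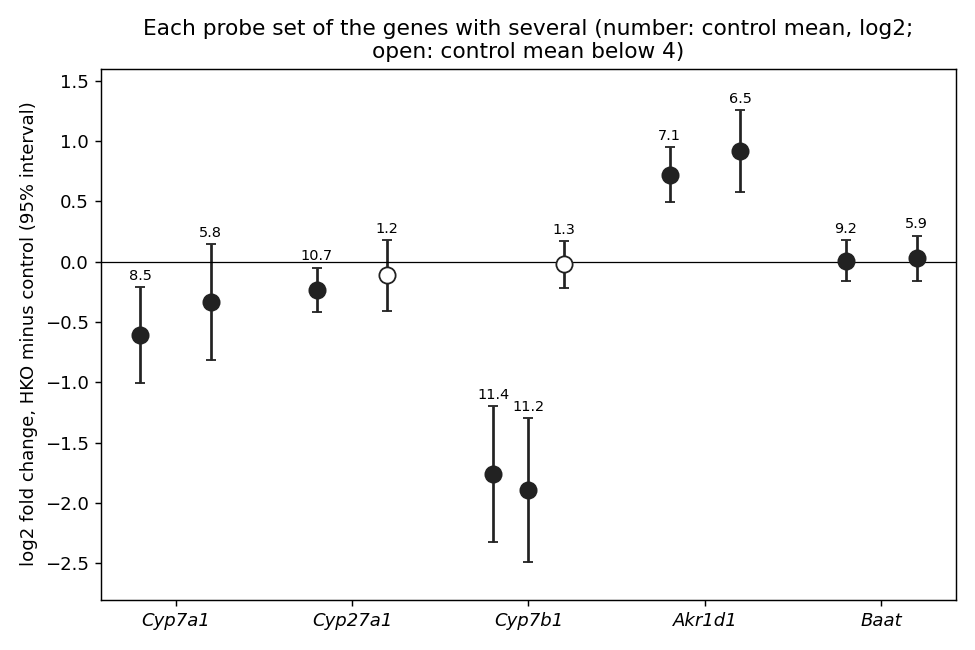
Log2 fold change, HKO minus control, with its 95% interval (y axis) for each probe set of the 5 genes with several; the number above each is its control mean in log2 units, and open circles have a control mean below 4. The pairs of Cyp7b1 (-1.76 and -1.89) and Akr1d1 (0.72 and 0.92) lie close together.

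Other genes of the pathway were taken from lists of enzymes, regulators, FXR targets, transporters and sterol supply. Of 56 measured, 3 rose and 1 fell (limma, adjusted p under 0.05), with a median log2 fold change of 0.01. The groups did not overlap in 15 of the 56, or 26.8%, beside the 18.7% of all genes.

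Of 14 other synthesis enzymes 1 fell, none rose and 13 did not pass, with a list median of 0.05. Cyp2c70, the mouse enzyme that makes muricholic acids, measured 11.52, 11.37 and 11.49 in control and 11.01, 10.53 and 10.66 in HKO livers. It fell by 0.73 ± 0.12 log2 units (limma, adjusted p = 0.0427), with every HKO value below every control value. It did not pass in 5 of the 6 fits without 1 array (control 1, 2 or 3, HKO 2 or HKO 3), where the adjusted p reached 0.154, and passed without HKO 1 (0.0181). Cyp46a1, a cholesterol hydroxylase best known from brain, stood at 0.37 ± 0.15 (0.348).

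None of 14 regulators of synthesis passed (median -0.09). The nuclear receptor CAR (Nr1i3) stood at 0.52 ± 0.10 (limma, adjusted p = 0.0616), with no overlap between the groups, and the FXR partner Rxra at -0.27 ± 0.10 (0.281), but at -0.03 by the median of its probe sets (0.928). Hnf4a, Nr5a2, Fgfr4 and Klb were looked at after the values were seen, because they act on Cyp7a1 or Cyp8b1. Hnf4a, whose core motif is marked above, stood at -0.28 ± 0.12 (0.37), but at 0.02 by the median of its probe sets. Nr5a2, which acts on the same promoters, stood at 0.11 (0.625) and at -0.05 by that median, and the FGF receptor Fgfr4 at -0.02 (0.953) and 0.18. The co-receptor Klb stood at 0.29 ± 0.12 (0.373) and at 0.13 by that median.

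Of 12 measured genes listed as FXR targets, Nr0b2 among them, 1 rose, none fell and 11 did not pass (median -0.06). Sdc1, a heparan sulfate proteoglycan of the hepatocyte surface, rose from 8.35, 8.41 and 8.35 to 8.94, 8.84 and 8.76, a log2 fold change of 0.47 ± 0.08 (limma, adjusted p = 0.0351). Without any 1 of the 6 arrays its adjusted p lay between 0.0637 and 0.124. It did not pass by the median of its probe sets (0.41, adjusted p = 0.192) or with the replicate block (0.0877). Osgin1 stood at -1.21 ± 0.23 (0.0635) with no overlap between the groups, and passed with the replicate block (0.0397) and without control 2 (0.0402), while the bile salt export pump Abcb11, which was chosen after its value was seen, stood at -0.33 ± 0.10 (0.24). Targets of the receptor thus had values on both sides of 0.

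Of 14 bile acid transporters 2 rose, none fell and 12 did not pass (median 0.01). The uptake carrier Slco1a4 rose by 1.66 ± 0.25 (limma, adjusted p = 0.0257) and the basolateral exporter Abcc3 by 0.65 ± 0.11 (0.0457), and each passed in 1 of the 6 fits without 1 array, Slco1a4 without HKO 2 and Abcc3 without control 1. In Slco1a4 HKO 2 stood at 7.41, nearer the controls (6.35 to 6.53) than HKO 1 at 8.40 and HKO 3 at 8.44, as in Cyp7b1. Slco1a4 did not pass with the trend and robust options of eBayes (0.0816) or the replicate block (0.0524), nor Abcc3 with the block (0.0947). Slco1a1, a related uptake carrier chosen after its value was seen, measured 10.46, 10.43 and 10.43 in control and 7.83, 9.68 and 8.06 in HKO livers. Its groups did not overlap, HKO 2 lay nearest to the controls, and its log2 fold change of -1.91 ± 0.41 did not pass (limma, adjusted p = 0.0908) but did without HKO 2 (0.000117). None of 8 sterol supply genes passed (median -0.12), with Insig2 at 0.28 ± 0.11 (0.331) and Srebf2 at -0.18 ± 0.08 (0.407).

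Bile acid enzymes are known to be zoned along the liver lobule, with Cyp7a1 and its partners toward the central vein, so zonal genes were measured beside them. None of 11 pericentral genes (median 0.07) and none of 8 periportal genes (median 0.00) passed. Of the 11 pericentral genes 7 had a log2 fold change above 0. Lhpp stood at 0.43 ± 0.13 and Oat, whose groups overlapped, at 0.57 ± 0.20 (limma, adjusted p = 0.231 and 0.281). Below 0 in the same list, Cyp1a2 stood at -0.43 ± 0.16 and Gulo at -0.33 ± 0.12 (0.32 and 0.307), both chosen after their values were seen. Among the periportal genes Cyp2f2 stood at -0.40 ± 0.09 and Hsd17b13 at 0.31 ± 0.15 (limma, adjusted p = 0.116 and 0.431).

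The genes whose pattern over the 6 livers lay closest to that of a member were found by the root mean square difference between log2 values, after each gene's own mean was taken off. For Cyp7a1 the nearest of all genes above the median level was Cyp2c70, at 0.12 log2 units, beside a spread of 0.39 for Cyp7a1 itself. The next were 9030622O22Rik, Hes1 and Plcxd2, at 0.14, 0.14 and 0.15, with log2 fold changes of -0.42, -0.46 and -0.49, none of which passed. In each of them HKO 1 was the highest of the HKO livers, as in Cyp7a1.

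For Cyp7b1 the nearest were the terminal complement genes C8b and C6, at 0.16 and 0.17, then Enho at 0.18 and Adh6-ps1 at 0.27, beside a spread of 0.95 for Cyp7b1. C8b, C6 and Enho fell, with log2 fold changes of -1.77, -1.74 and -1.94 (limma, adjusted p = 0.00272, 0.00544 and 0.00409), and Adh6-ps1 stood at -1.37 (0.0692). In all 4 the HKO 2 value was the highest of the HKO livers. Where Cyp7b1 passed in 1 of the 6 fits without 1 array, C8b, C6 and Enho passed in all 6.

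For Akr1d1 the nearest were Flvcr2, Gpx6, Inmt and Olig1, at 0.07, 0.08, 0.08 and 0.09, beside a spread of 0.38 for Akr1d1. They rose by 0.60, 0.76, 0.60 and 0.64 (limma, adjusted p = 0.0253, 0.0198, 0.0183 and 0.00962), and in all 4 HKO 1 was the highest liver. They passed in 1, 2, 2 and 4 of the 6 fits without 1 array, and Olig1 alone of the 4 with the replicate block (0.0391). For Cyp8b1 the nearest were Rspo3, Nr2c1, Esyt2 and Kcnj8, at 0.10, 0.11, 0.11 and 0.12. Their log2 fold changes lay between 0.04 and 0.12 and did not pass, and like Cyp8b1 each was highest in HKO 3. With 6 livers many genes can follow a given pattern, and the likeness is a description. The nearest genes of all 4 members were picked by these same values. The direction of their changes and the order of the livers in them therefore follow largely from that choice. Their adjusted p and counts of fits passed are no separate evidence.

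**Figure D5:**
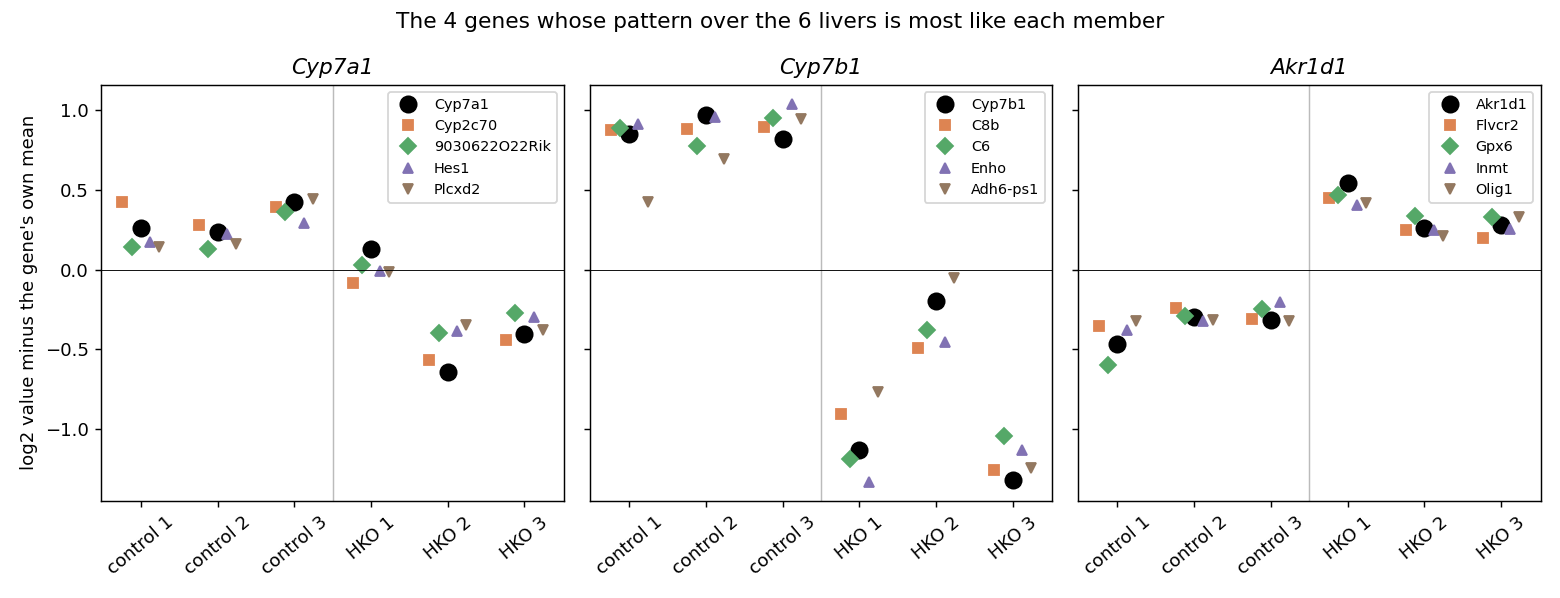
Log2 value minus the gene's own mean (y axis) in each liver (x axis) for Cyp7a1, Cyp7b1 and Akr1d1 (black) and the 4 genes nearest to each. The HKO 2 points stand above those of HKO 1 and HKO 3 in the Cyp7b1 panel, and HKO 1 stands above the other HKO livers in the Cyp7a1 and Akr1d1 panels.

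The targeted gene Tmbim1 was lower in HKO liver in its 1 probe set, at 7.62, 7.58 and 7.74 in control and 7.19, 7.14 and 7.06 in HKO livers (log2 fold change -0.52 ± 0.08; limma, adjusted p = 0.026). It passed in 0 of the 6 fits without 1 array (adjusted p 0.065 to 0.0967), nor did it pass with the replicate number as a block (0.0828). The labels do not say whether that probe set lies in the deleted part, so it is a limited check. Array medians lay between 3.92 and 3.95, and with 3 arrays a group the precision of all values is limited. Of 79 measured markers in 9 cell type lists, none passed. An unadjusted p under 0.05 (limma) was found in 6 of them, beside 2342 of all 18029 genes. All 6 were lower in HKO liver: Hnf4a and Fgb (hepatocyte), Cd163 and Ccr2 (macrophage), Sox9 (bile duct) and Slc10a2 (fat, pancreas and intestine list). The macrophage marker Cd163 stood at -0.48 ± 0.09 (limma, adjusted p = 0.05005) and the bile duct marker Sox9 at -0.66 ± 0.18 (0.171), both chosen after their values were seen and both with no overlap between the groups. Cd163 passed in 8 of 10 other settings, with quantile normalization among them (0.0474), but in 0 of the 6 fits without 1 array. One of the 8 is the threshold of 0.1, where the adjusted p is unchanged and only the cutoff is looser. Sox9 passed without control 3 (0.0349). The 13 macrophage markers had a median log2 fold change of -0.03, and 6 of them lay above 0. Their mean level was 6.65 to 7.25 in control and 6.79 to 7.12 in HKO livers, so Cd163 does not stand for its list. Hepatocyte markers had a mean level of 12.59 to 12.64 in control and 12.45 to 12.66 in HKO livers. Markers of bile duct cells, all 8 of them below the median gene (4.69) in level, had a mean level of 3.21 to 3.27 in control and 3.02 to 3.13 in HKO livers. Their median log2 fold change was -0.12, and 2 of the 8 lay above 0. Sox9 had the largest change of the 8 and weighs on that mean level, so it does not stand for its list. By the median of its probe sets Sox9 stood at -0.42 (limma, adjusted p = 0.244). In whole liver, fewer cells of a type and less RNA per cell cannot be told apart, and the part of macrophages and bile duct cells in the values above was not tested.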

How the data were processed

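Per the submitters' processing notes, the authors made the deposited log2 values with RMA and also used limma; no version or setting is given in the sources used here. RMA gives the arrays a common distribution and compresses dim probe sets. Per the labels' protocols, 400 ng of total RNA was labelled for each array.

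Of 38208 probe sets, 13 are array controls, 34325 have 1 gene symbol in the platform annotation, 62 have several and 3808 are unnamed here. For each of 18029 genes the probe set brightest in mean over the 6 arrays was used. HKO minus control was fitted in R 4.3.3 with limma 3.58.1 (functions lmFit and eBayes, genotype only, two-sided, Benjamini-Hochberg over all genes, threshold 0.05). Nothing states that replicate numbers pair animals, and the deviations of same-numbered arrays had correlations of -0.09, 0.07 and 0.11, so no block was used. An exact permutation test of 3 against 3 cannot go below 0.1. The steps were tested on simulated data.

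Named genes are the 10 members, Tmbim1, the members of each other list past the threshold or, up to 2, with the lowest p, and the 4 nearest genes of 4 members. Hnf4a, Nr5a2, Fgfr4, Klb, Abcb11, Slco1a1, Cyp1a2, Gulo, Cd163, Sox9, Fgb, Ccr2 and Slc10a2 fall outside that rule. Members, lists and tests were chosen with earlier results of these data known. Cell type lists covered hepatocytes, bile duct cells, macrophages, neutrophils, lymphocytes, endothelial, stellate and red blood cells, and fat, pancreas and intestine. The alternatives tried were quantile normalization, median centring, a filter on dim genes, other choices of probe set, other eBayes options, array weights, the replicate block, a threshold of 0.1, and leaving out each array.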

Additional observations from a re-analysis of the deposited data

How the results depend on the processing

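Over all genes 182 passed, 344 at a threshold of 0.1 and 78 to 161 without 1 array. Of the 10 bile acid genes, 2 passed in the main comparison, 1 (Cyp7b1) with the replicate number as a block and 0 to 3 without 1 array. Among the 56 other pathway genes, 4 passed, 7 at a threshold of 0.1, 2 with the replicate block (Osgin1 and Cyp2c70, both lower) and 0 to 2 without 1 array. Without an array the fit has fewer samples.

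Cyp7b1 kept its log2 fold change of -1.76 but did not pass with the trend and robust options of eBayes (adjusted p = 0.0996), and lay between -2.10 and -1.54 without 1 array. Akr1d1, at 0.72, did not pass with the replicate block (adjusted p = 0.0642) and lay between 0.63 and 0.77 without 1 array. Nr0b2, at -0.69, passed with the trend and robust options (0.041) and at a threshold of 0.1 (0.0703), and lay between -0.83 and -0.59 without 1 array. Cyp7a1 lay between -0.83 and -0.44 without 1 array. The causes were not tested.

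Signs turned in 3 of the 10 genes, all with values near 0 in the main comparison. Baat stood at -0.00073 after quantile normalization and between -0.01423 and 0.039 without 1 array, Hsd3b7 between -0.01236 and 0.052, and Cyp8b1 between -0.070 and 0.302. The other 7 kept their sign in all 16 alternatives. In several of these the log2 fold change cannot differ from the main one, so the sign was fixed. They include the filter on dim genes, the eBayes options, the replicate block and the threshold of 0.1. Of the genes that are no members, the sign turned by the median of the probe sets in Hnf4a (0.0154), Fgfr4 (0.178), Nr5a2 (-0.0544) and Nr2c1 (-0.0492). Without 1 array, Fgfr4 ranged from -0.053 to 0.0116, Rspo3 from -0.0904 to 0.174, Nr2c1 from -0.0382 to 0.160, Esyt2 from -0.0456 to 0.218 and Kcnj8 from -0.0287 to 0.179.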
